A study of Mus musculus with 2 samples.

Results

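The receptors for acetylcholine, serotonin, dopamine and noradrenaline were examined for methylated DNA in 2 layers of the fetal mouse cerebral wall. Members were the peaks on chromosomes 1 to 19 whose deposited gene symbol named a muscarinic (Chrm), nicotinic (Chrn), serotonin (Htr), dopamine (Drd) or adrenergic (Adra, Adrb) receptor, counted once per peak and table. They numbered 181 of the 147297 peaks in 4 tables and belonged to 37 of 13253 genes. The tissues were the cortical plate (CP), rich in neurons that are differentiating, and the V/SVZ, which includes the ventricular zone, rich in neuronal progenitors. Both were dissected by hand from ICR mouse embryos at embryonic day 16, with no genetic change or treatment named in the labels. Methylated fragments of genomic DNA were captured with a methylated DNA enrichment kit and sequenced (MBD-seq), so that a peak marks a stretch where captured reads, here called tags, piled up. There was 1 library for each tissue, whether from pooled embryos is not stated in the labels, and no difference below has a replicate check. The libraries hold DNA and no expression, so that the layers could not be checked against marker genes.

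Acetylcholine acts on muscarinic receptors, which couple to G proteins, and on nicotinic receptors, which are ion channels assembled from several subunits. Serotonin, dopamine and noradrenaline act almost wholly through G protein-coupled receptors. The exception is the serotonin receptor with subunits encoded by Htr3a and Htr3b, an ion channel. Fibres that release these transmitters reach the cortex from the brainstem and basal forebrain, and in the adult cortex the receptors set excitability and plasticity. Methylation in the body of a gene and methylation at its start are not equivalent: dense methylation of a CpG-rich promoter goes with a silent gene, while gene bodies are often methylated in active genes too.

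Peaks had been listed for each tissue over a control, which the labels do not describe, and for each tissue directly over the other. The receptor genes had 69 of the 53404 CP peaks over control and 66 of the 52283 V/SVZ peaks over control. They had 21 of the 19696 CP over V/SVZ peaks and 25 of the 21914 V/SVZ over CP peaks. Library totals are unstated in the sources used here. The listed peaks over control held 1710134 tags in CP and 1000061 in V/SVZ. CP tags exceeded V/SVZ tags at most shared regions, with a median CP to V/SVZ ratio of 1.82 over 32497 autosomal pairs of overlapping peaks, and each ratio below is read against that median. The control lists run from a fold over local expectation of 14.71 in CP and 11.48 in V/SVZ up to 50, and the peak numbers in both exceed the number of peaks listed. A region with no listed peak may therefore still hold captured tags. No CP region with a fold below 14.71 was listed, while V/SVZ regions down to 11.48 were, so that some V/SVZ peaks could have no listed CP counterpart of like fold.

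These promoters are shown because a peak lay over the deposited start of the gene (Chrna1), within 1 kb before it (Htr2a, Drd5) or within 1 kb after it (Chrng, Drd5). Peaks after the start could be sought only in genes whose start follows from the deposited distances, which leaves out many receptor genes. Adrb3, whose promoter peak is given below, is not shown because it matched no promoter entry. The sequences are the 250 bases before the start in RefSeq (GRCm38.p6), 5' to 3' on the strand of the gene, with CpG sites, the targets of methylation, in capitals. The peaks are in build mm9, and whether RefSeq and the deposited transcript use the same start was not tested. By the deposited distances, the listed peaks of Htr2a, Drd5 and Chrng lay outside the 250 bases before the start, so that the letters show the promoter beside the peak and not the captured stretch.
Chrna1 (chr2:73580339-73580588, minus strand): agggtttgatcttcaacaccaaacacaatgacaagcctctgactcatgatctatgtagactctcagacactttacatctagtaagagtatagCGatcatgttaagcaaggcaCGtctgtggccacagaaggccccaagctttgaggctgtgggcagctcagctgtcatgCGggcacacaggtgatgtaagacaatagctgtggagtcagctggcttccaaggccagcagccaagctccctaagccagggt
Chrng (chr1:87205561-87205810, plus strand): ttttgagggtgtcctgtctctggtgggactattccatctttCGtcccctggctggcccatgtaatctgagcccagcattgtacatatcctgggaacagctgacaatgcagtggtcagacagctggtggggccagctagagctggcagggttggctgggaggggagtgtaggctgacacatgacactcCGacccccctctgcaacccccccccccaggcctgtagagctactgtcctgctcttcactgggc
Htr2a (chr14:74640624-74640873, plus strand): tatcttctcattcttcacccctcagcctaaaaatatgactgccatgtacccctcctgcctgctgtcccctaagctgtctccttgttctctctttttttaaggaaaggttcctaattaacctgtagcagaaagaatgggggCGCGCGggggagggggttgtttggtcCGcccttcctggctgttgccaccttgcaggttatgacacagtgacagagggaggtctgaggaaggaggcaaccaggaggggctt
Drd5 (chr5:38319259-38319508, plus strand): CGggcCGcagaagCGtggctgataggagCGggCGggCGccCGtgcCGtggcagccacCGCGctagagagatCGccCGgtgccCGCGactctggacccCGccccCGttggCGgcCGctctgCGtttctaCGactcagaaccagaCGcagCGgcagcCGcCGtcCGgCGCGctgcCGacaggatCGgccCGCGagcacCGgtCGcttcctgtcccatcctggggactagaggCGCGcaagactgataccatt
The Drd5 promoter held 35 CpG sites in these 250 bases, Htr2a held 4, Chrna1 held 3 and Chrng held 2. Of the 48 protein-coding genes that RefSeq lists under these symbols on the same chromosomes, with or without a peak here, 36 matched a promoter. Over 300 bases, which run past the start, and with the most CpG-rich promoter of each gene, they had a median of 14.5 CpG sites. The median of all 25748 autosomal genes was 8. That set is not stated to be limited to protein-coding genes, so the medians may not be of like sets. The receptor promoters ran from 1 site at Chrne and Chrna10 to 46 at Htr7, which encodes a serotonin receptor that raises cyclic AMP.

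Few receptor peaks lay at promoters, counted as peaks over the 5' end or whole of a transcript or within 1 kb upstream. CP had 2 such peaks of 69, against 2.2% of all autosomal CP peaks assigned to a gene, and V/SVZ had 2 of 66, against 1.94%. Htr2a, the serotonin receptor on which classical psychedelics act, had the strongest: 114 tags in CP (chr14:75039286-75039683, mm9) and 67 in V/SVZ (chr14:75039307-75039683), 963 bp upstream in both. This pair lay outside both direct lists. Its ratio was 1.70, with an exact 95% interval of 1.25 to 2.34 that includes the autosomal median. The interval covers counting error only, as do all intervals given here, and treats tags as independent molecules, which reads without molecular identifiers are not.

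The other promoter peaks were weaker and each was listed in CP or in V/SVZ only. Adrb3, the adrenergic receptor best known from fat tissue, had 12 tags in CP in a peak 217 bp upstream (chr8:28340277-28340629) and no listed V/SVZ peak. Chrna1, the alpha subunit of the muscle nicotinic receptor, had 7 tags in V/SVZ over its 5' end (chr2:73418223-73418562) and no listed CP peak there. Drd5, a dopamine receptor that raises cyclic AMP, had the only promoter peak in a direct list. It held 13 tags in the CP over V/SVZ list, 978 bp upstream (chr5:38709498-38709769), and overlapped no listed control peak of either tissue. That is 1 of 21 CP over V/SVZ peaks, against 2.64% of all such autosomal peaks assigned to a gene, and 0 of 25 V/SVZ over CP peaks, against 1.21%. With peaks up to 2 kb upstream counted, the numbers were 5 in CP, against 3.80% of all, and 5 in V/SVZ, against 3.34%. These added Adra2a (30 tags in CP, 12 in V/SVZ), Htr6 (53 and 15) and, in CP, Htr1d with 16 tags. In V/SVZ they added Drd2 with 6 tags.

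Most receptor peaks lay inside the gene. Of 73 pairs of a CP peak and a receptor gene, 43 were inside the gene (58.9%, Wilson 95% interval 47.4 to 69.5%), beside 65.4% of all autosomal peak and gene pairs. In V/SVZ it was 43 of 69 (62.3%, 50.5 to 72.8%), beside 66.8%. Several peaks near a receptor gene lay inside a neighbour: 5 of 25 flank peaks in CP and 6 of 21 in V/SVZ. Among them were the Chrnb1 flank peaks in Zbtb4, the Chrm4 flank peaks in Ambra1 and Dgkz, and the Drd2 flank peak in Ankk1. Counting any assignment to another gene, inside or within 10 kb, 13 of 69 CP and 14 of 66 V/SVZ peaks over control were shared. So were 8 of 21 CP over V/SVZ peaks (38.1%) and 9 of 25 V/SVZ over CP peaks (36%). The upstream peaks of Htr6, for example, were also assigned to Nbl1. Exons and introns were not analysed here, since no mm9 annotation was used.

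**Figure D1:**
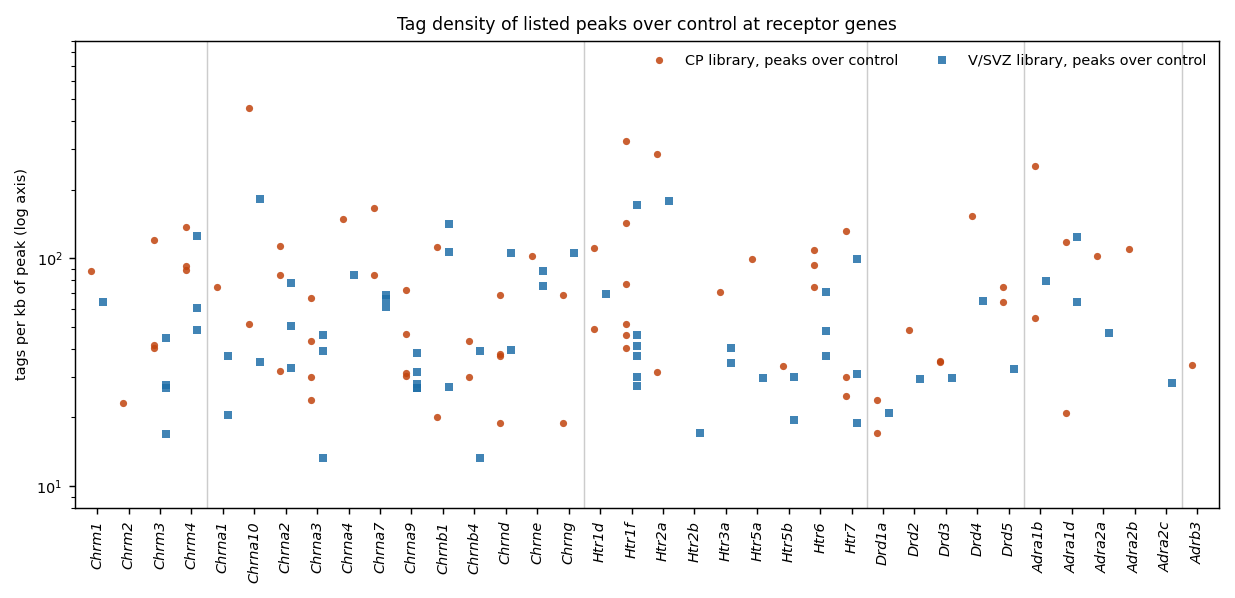
Tags per kb of peak (log axis) for the listed peaks over control of 36 receptor genes, CP circles left and V/SVZ squares right, grouped by receptor family between grey lines. Chrna10 (457 tags per kb in CP, 181 in V/SVZ), Htr1f (328 and 172), Htr2a (286 and 178) and Adra1b (253 in CP) stand highest.

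Per kb of peak, the densest receptor regions were few. The peak inside Chrna10, a nicotinic subunit of cochlear hair cells, had 365 tags in CP (chr7:109261498-109262296) and 155 in V/SVZ (chr7:109261406-109262259), or 457 and 181 tags per kb. The peak inside Htr1f, a serotonin receptor that lowers cyclic AMP, had 288 tags in CP (chr16:64964239-64965117) and 153 in V/SVZ, or 328 and 172 tags per kb. The Htr2a promoter region followed with 286 and 178 tags per kb. The sparsest was a V/SVZ peak of 8 tags inside Chrnb4, at 13.3 tags per kb. The plot of tag density by gene shows these regions above the other peaks of the same genes.

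The tissues shared most receptor regions. Of the CP peaks, 48 of 69 overlapped a V/SVZ peak by at least 1 bp (69.6%, Wilson 57.9 to 79.2%), against 63.4% of all autosomal CP peaks. Of the V/SVZ peaks, 48 of 66 overlapped a CP peak (72.7%, 61.0 to 82.0%), against 64.1%. Each of the 48 pairs joined 1 peak to 1 peak. Their tags summed to 3209 in CP and 1622 in V/SVZ, and their median ratio was 1.79, beside 1.82 over all autosomal pairs. The median ratio was 1.92 over 6 muscarinic pairs, 1.92 over 17 nicotinic pairs, 1.77 over 16 serotonin pairs and 1.63 over 4 dopamine pairs. It was 2.50 over 3 alpha adrenergic pairs, too few to compare.

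Few pairs stood apart from the median. A ratio at least 2-fold above the autosomal median was seen at 2 of 48 receptor pairs (4.17%, Wilson 1.15 to 14.0%), against 9.27% of all autosomal pairs. A ratio at least 2-fold below it was seen at 3 (6.25%, 2.15 to 16.8%), against 11.2%. With tags per bp in place of tags, which allows for peaks of different length, each count was 1, against 7.35% of all autosomal pairs above and 9.37% below. Among pairs with at least 30 tags in both libraries together, the autosomal median was 2.08, and 0 of 37 receptor pairs lay 2-fold above it, against 8.64%. Adra1b and Htr5a thus passed this fold only against the median of all pairs. The exact interval lay wholly above the median at 7 pairs (14.6%), against 12.6%, and wholly below it at 4 (8.33%), against 10.2%. The Wilson interval of each of these 4 shares includes the background.

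**Figure D2:**
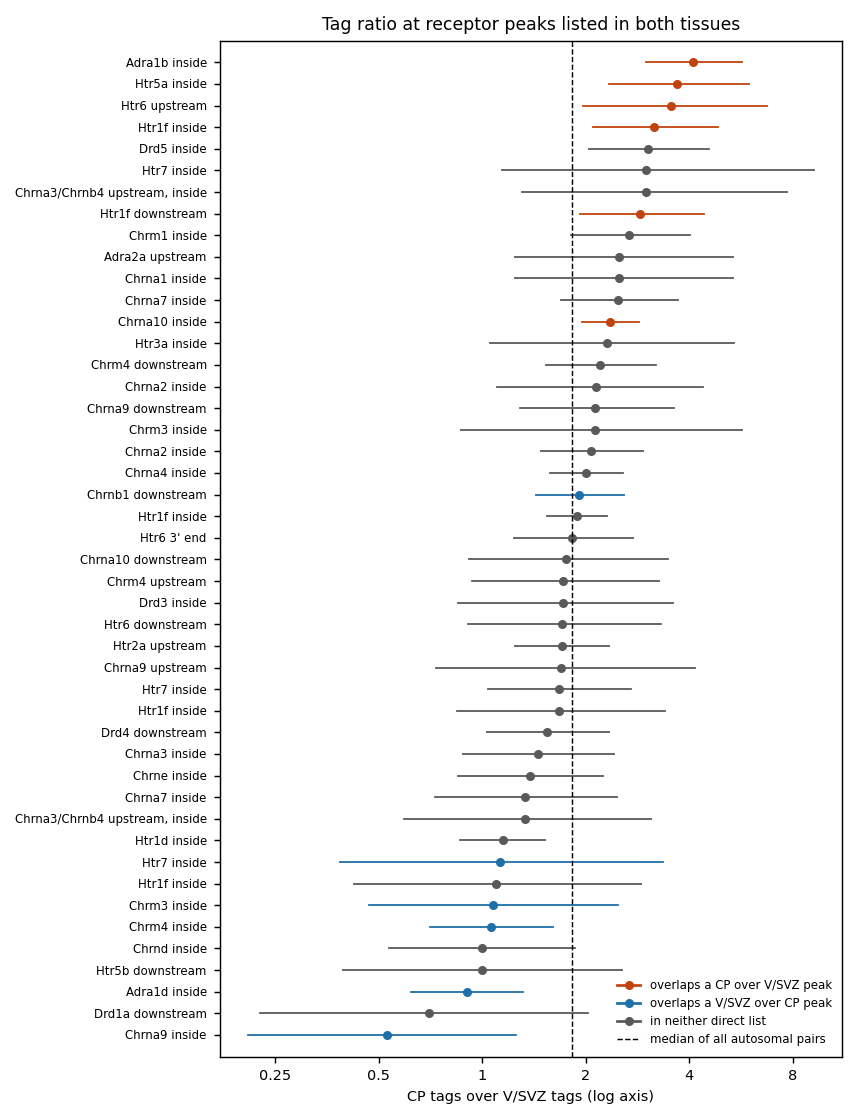
CP tags over V/SVZ tags (log axis) with exact 95% intervals for 46 receptor regions listed in both tissues, by gene and position, with the median of all autosomal pairs, 1.82, dashed. Adra1b (4.10) and Htr5a (3.68) are highest, Drd1a (0.700) and Chrna9 (0.529) lowest, and most intervals include the dashed line.

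Among pairs with at least 30 tags, the 5 most weighted to CP were in Adra1b, Htr5a, Htr6, Htr1f and Drd5. Adra1b, an adrenergic receptor that couples to Gq and calcium release, had 205 tags in CP (chr11:43648744-43649554) and 50 in V/SVZ (chr11:43648835-43649464), a ratio of 4.10 (exact 3.0 to 5.70). Htr5a, a serotonin receptor that couples to Gi, had 92 tags in CP and 25 in V/SVZ (ratio 3.68, 2.34 to 5.98; CP peak chr5:28168915-28169843). A region 1682 bp upstream of Htr6, a serotonin receptor studied for its part in the migration of cortical neurons, had 53 tags in CP and 15 in V/SVZ (ratio 3.53, 1.96 to 6.75). The CP and V/SVZ peaks of Adra1b differed in length, 811 and 630 bp, and per bp its ratio was 3.18. Per bp it was 3.34 at Htr5a and 2.93 at Htr6.

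Htr1f and Drd5 followed. Htr1f had 2 such regions, one inside the gene with 101 tags in CP and 32 in V/SVZ (ratio 3.16, 2.10 to 4.86), one downstream with 95 and 33 (2.88, 1.92 to 4.42). Its densest region, above, stood at the median with a ratio of 1.88. Drd5 had 106 tags in CP in a peak that began 154 bp after the 5' end of the gene. The matching V/SVZ peak had 35 tags and began 436 bp after it. The ratio was 3.03 (2.05 to 4.57) and per bp 1.96, since the CP peak was 1652 bp long and the V/SVZ peak 1069 bp. This Drd5 region was in neither direct list. Next to Drd5 stood a nicotinic region upstream of Chrna3 and inside Chrnb4, with 24 tags in CP and 8 in V/SVZ (ratio 3.0, 1.30 to 7.72; per bp 2.26). Per bp, regions of Chrna10 (2.52), Chrm3 (2.45), Chrna7 (2.40), Drd4 (2.36) and Adra2a (2.17) also stood above Drd5. So did the downstream region of Htr1f (2.06) and regions of Htr3a (2.04) and Chrna1 (2.01). The Chrm3 pair had only 25 tags in both libraries together. The Chrna10 region had a ratio of 2.35 (1.95 to 2.86).

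The pairs least weighted to CP had ratios of 1.33 or lower. Adra1d, another Gq-coupled adrenergic receptor, had 57 tags in CP (chr2:131384253-131384735) and 63 in V/SVZ (chr2:131384235-131384740), a ratio of 0.905 (0.621 to 1.32). Adra1d thus lay at the other end of the order from Adra1b. Chrm4, a muscarinic receptor that lowers cyclic AMP, had 52 tags in CP and 49 in V/SVZ inside the gene (ratio 1.06, 0.704 to 1.6). Htr1d, which like Htr1f is a target of the triptan drugs, had 109 and 95 (1.15, 0.863 to 1.53), and its per bp ratio of 1.59 stood near the autosomal 1.64. Chrnd, the delta subunit of the muscle nicotinic receptor, had 23 and 23, with an interval of 0.536 to 1.87 that includes the median. Chrna7, which forms nicotinic channels of a single subunit type in brain, had 28 and 21 (1.33, 0.730 to 2.47) in 1 region, but 97 and 39 (2.49, 1.70 to 3.71) in another. The lowest ratio was inside Chrna9, the partner subunit of Chrna10, with 9 tags in CP and 17 in V/SVZ (0.529, 0.208 to 1.26). Its CP peak was 296 bp long and its V/SVZ peak 629 bp, and per bp the ratio was 1.13. Drd1a, the main dopamine receptor that raises cyclic AMP, had 7 and 10 in a region 7075 bp downstream in CP (0.700, 0.226 to 2.04).

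The direct comparisons split the receptor genes evenly. A CP over V/SVZ peak was assigned to 18 of 37 genes (48.6%, Wilson 33.4 to 64.1%), against 56.2% of autosomal genes with a control peak. A V/SVZ over CP peak was likewise assigned to 18 of 37, against 56.3%. Of these, 8 genes had both kinds (21.6%, 11.4 to 37.2%), against 32.2%, and 9 had neither. From 2 control peaks upward, genes with more control peaks more often had a direct peak of each kind. Receptor genes had a median of 3 control peaks over both tissues, beside 4 in all such genes. Among genes with 5 to 8 control peaks, 6 of 10 receptor genes had a CP over V/SVZ peak, beside 66.9% of all, and 8 of 10 had a V/SVZ over CP peak, beside 69.6%. Among genes with 3 to 4, the numbers were 7 of 14, beside 53.1%, and 5 of 14, beside 50.3%. With 2 they were 3 of 6, beside 34.4%, and 1 of 6, beside 30.1%. With 1 they were 1 of 5, beside 35.9%, and 2 of 5, beside 31.9%. With 9 or more they were 1 of 2, beside 83.7%, and 2 of 2, beside 93.2%. With the authors' significance score of 100 or more required, the CP over V/SVZ count was 8 of 37, beside 27.4% of all, and the V/SVZ over CP count was 13 of 37, beside 34.4%. In the CP over V/SVZ list the authors' false discovery rate stood at 100% for receptor peaks and likewise across all 19696 peaks. That value is therefore not particular to the receptor genes. In the V/SVZ over CP list receptor peaks ran from 33.5 to 88.9%, while the whole list spanned 0 to 89.96%.

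**Figure D3:**
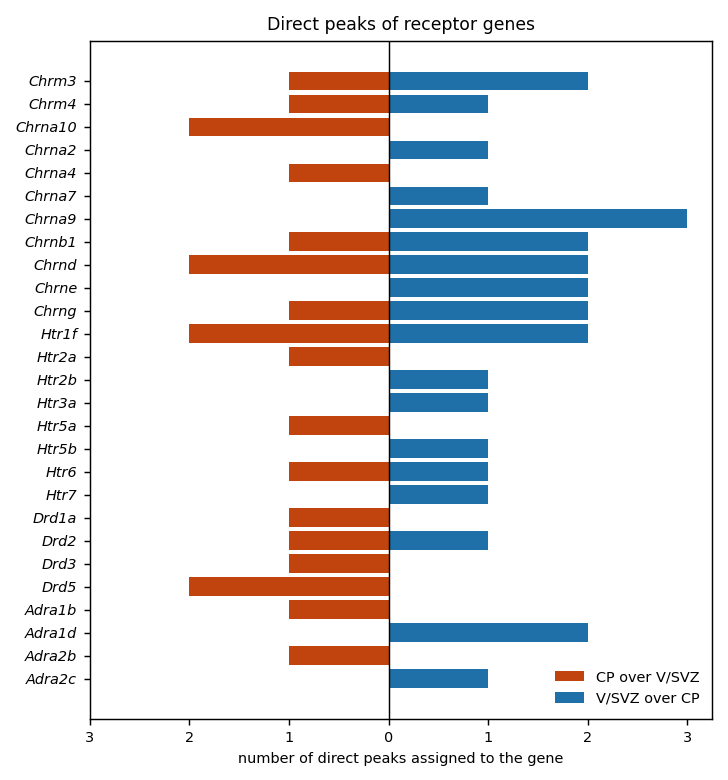
Number of direct peaks assigned to each of 27 receptor genes, CP over V/SVZ to the left and V/SVZ over CP to the right. Chrna9 has 3 peaks on the V/SVZ side and 0 on the CP side, and 8 genes have bars on both sides.

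By family, the muscarinic genes with direct peaks, Chrm3 and Chrm4, had both kinds. Of 12 nicotinic genes, 5 had a CP over V/SVZ peak and 7 a V/SVZ over CP peak. Of 9 serotonin receptor genes, 4 and 6 did. Of 5 dopamine receptor genes, 4 had a CP over V/SVZ peak (Drd1a, Drd2, Drd3 and Drd5) and 1, Drd2, a V/SVZ over CP peak. Of 5 alpha adrenergic genes, 2 had only the first kind, Adra1b and Adra2b, and 2 only the second, Adra1d and Adra2c. Grouped by signalling, 13 ion channel genes (nicotinic subunits and Htr3a) had CP over V/SVZ peaks in 5 and V/SVZ over CP peaks in 8. The 12 genes coupled to Gi had 6 and 5, the 6 coupled to Gq had 3 and 3, and the 6 coupled to Gs had 4 and 2. Of all autosomal genes with a control peak, 56.2% had a CP over V/SVZ peak and 56.3% a V/SVZ over CP peak. The families and signalling groups are small, and a difference from these shares was not tested.

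By the authors' score, the leading CP over V/SVZ peaks lay in or near Chrm3, Adra2b, Adra1b, Drd5, Htr5a and Htr2a. Chrm3, a Gq-coupled muscarinic receptor, had 43 tags in CP (chr13:10202089-10202446) and no listed V/SVZ peak there. Adra2b, a Gi-coupled adrenergic receptor, had 38 CP tags 2244 bp downstream (chr2:127195201-127195548) and no listed V/SVZ peak. A region 6096 bp upstream of Drd5 had 27 CP tags, and a region inside Htr2a had 21 CP tags (chr14:75044726-75045390), 4080 bp after the 5' end. Neither had a listed V/SVZ peak. Inside Htr2a the CP library thus had a second region beside the promoter region that both tissues shared. Drd1a and Drd3, which signal through Gs and Gi, had 9 and 8 CP tags in peaks inside the gene, with no listed V/SVZ peak at those positions. Drd3 also had a shared region inside the gene with 24 tags in CP and 14 in V/SVZ (ratio 1.71, 0.852 to 3.58). Of the 21 receptor peaks of this list, 11 overlapped a CP control peak only, 6 overlapped control peaks of both tissues and 4 overlapped none. These are 52.4, 28.6 and 19%, beside 50.7, 26.3 and 21.7% of all autosomal CP over V/SVZ peaks.

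Chrna7 had 17 tags in V/SVZ (chr7:70347751-70348007) and no listed CP peak there. A region inside Chrng, the fetal subunit of the muscle nicotinic receptor, had 34 (chr1:89103873-89104196). Htr3a, the ion channel that marks a class of cortical interneurons, had 12 (chr9:48708961-48709256). Chrnb1, the beta subunit of the muscle receptor, had 8 inside the gene, Chrm3 had 6 (chr13:9972152-9972373) and Htr5b, a serotonin receptor, had 8. All 6 lacked a listed CP peak. The tags of the 25 receptor peaks ran from 6 to 63 with a median of 12, and those of the 21 CP over V/SVZ peaks from 8 to 365 with a median of 27. The medians of all autosomal peaks in these lists were 9 and 17 tags. Of the 25, 15 overlapped a V/SVZ control peak only, 5 overlapped control peaks of both tissues, 4 overlapped none and 1, downstream of Chrnb1, overlapped a CP control peak only. The first 3 counts are 60, 20 and 16%, beside 59.2, 25.7 and 14.9% of all autosomal V/SVZ over CP peaks.

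Direct peaks of opposite kind lay close together at Chrng and in Chrm4. Both kinds were seen in 21.6% of receptor genes, against 32.2% of autosomal genes with a control peak. In Chrng, whose promoter is shown above, a CP peak of 27 tags began 123 bp after the 5' end (chr1:89102508-89102899) and was in the CP over V/SVZ list. The V/SVZ peak of 34 tags began 1488 bp after the 5' end and was in the V/SVZ over CP list, as was a peak of 11 tags that began 3907 bp after it and overlapped no listed control peak. Neither tissue had a listed control peak at the other's position. These peaks were also assigned to Chrnd, the neighbouring muscle subunit gene, as downstream peaks. The gene counts above include both Chrng and Chrnd, so that these peaks enter those counts under both names. In Chrm4, a peak of 32 CP tags began 5187 bp after the 5' end and was in the CP over V/SVZ list. It overlapped no listed control peak. The shared region described above began 3167 bp after the 5' end in CP and 3157 bp in V/SVZ. That region overlapped a V/SVZ over CP peak with a fold of 1.85 and a false discovery rate of 88.9%. Both direct peaks of Chrm4 had scores, 51.9 and 53.8, near the lowest score of 50.01.

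Chrm3 and Htr1f had many regions along the gene. Chrm3 had 3 CP and 4 V/SVZ control peaks along the gene, of which 2 pairs were shared. Those had 17 tags in CP and 8 in V/SVZ, and 14 in CP and 13 in V/SVZ. The other CP peak was the region of 43 tags, and the other V/SVZ peaks had 6 and 7 tags. Htr1f had 6 control peaks in each tissue, the most of any receptor gene, and 5 pairs were shared. Its unshared regions had 10 tags in CP and 8 in V/SVZ. Next came Chrna3, Chrna9 and Chrnd with 4 peaks each in CP, and Chrna9 with 5 and Chrm3 with 4 in V/SVZ. Chrna3 shared 2 of its flank regions with the adjacent Chrnb4, both subunits of ganglionic nicotinic receptors, where the peaks were inside Chrnb4.

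**Figure D4:**
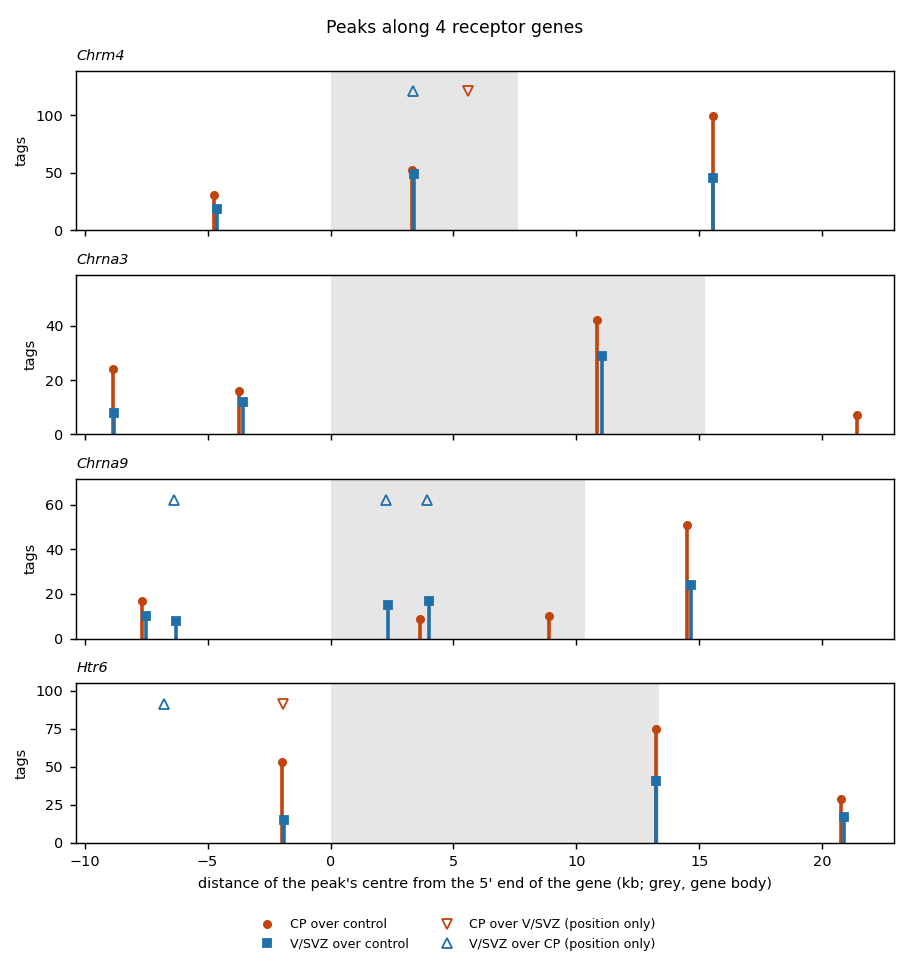
Tags of each listed peak over control (CP circles, V/SVZ squares) against the distance of its centre from the 5' end, in kb, for 4 receptor genes whose ends follow from the deposited distances, with direct peaks as open triangles at an arbitrary height. In Chrna9 the V/SVZ library has 2 peaks in the first 5 kb of the gene, of 15 and 17 tags, and CP has 1, of 9 tags. The V/SVZ peak of 15 tags has a fold of 12.5, below the lowest fold listed in CP, 14.71.

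The plot of peaks along 4 genes gives these positions. In Chrna9 all 3 direct peaks were V/SVZ over CP, with 8 V/SVZ tags upstream and 15 and 17 inside the gene. The region 3847 bp downstream of Chrna9 had 51 tags in CP and 24 in V/SVZ, and a peak of 10 CP tags began 8780 bp after the 5' end. In Htr6 the upstream region of 53 CP and 15 V/SVZ tags was in the CP over V/SVZ list, and a second upstream region of 11 V/SVZ tags in the V/SVZ over CP list. A peak over the 3' end of Htr6 had 75 tags in CP and 41 in V/SVZ, a ratio of 1.83, close to the median. In Chrna3 no region was in a direct list.

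The 9 receptor genes without a direct peak were Chrm1, Chrm2, Chrna1, Chrna3, Chrnb4, Htr1d, Drd4, Adra2a and Adrb3. Chrm1, the main Gq-coupled muscarinic receptor of cortex, had 99 tags in CP over 1126 bp and 37 in V/SVZ over 578 bp, a ratio of 2.68 (1.82 to 4.02) and 1.37 per bp. Drd4, a Gi-coupled dopamine receptor, had 65 tags in CP and 42 in V/SVZ in a region 6447 bp downstream in CP. Chrm2, a Gi-coupled muscarinic receptor, had 8 CP tags inside the gene and no listed V/SVZ peak. Chrna4, a subunit of the most common nicotinic receptor in brain, had a wide shared region of 207 tags in CP and 103 in V/SVZ (ratio 2.01), and its CP over V/SVZ peak of 27 tags lay elsewhere in the gene. Chrne, the adult muscle subunit, had 44 and 32 tags inside the gene and 2 V/SVZ over CP peaks downstream, inside Mink1. Of the 48 RefSeq genes, 11 were not analysed for peaks here (Chrm5, Chrna5, Chrna6, Chrnb2, Chrnb3, Htr1a, Htr1b, Htr3b, Htr4, Adra1a and Adrb1).

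Further regions were as follows. Chrm4 had its most tags in CP, 99, in a downstream region with 45 in V/SVZ. Chrna2, a nicotinic subunit, had shared regions of 110 tags in CP and 53 in V/SVZ, and of 30 and 14. Its V/SVZ over CP peak had 8 tags, 4727 bp downstream. Htr7 had shared regions of 50 and 30, 18 and 6, and 9 and 8 tags in CP and V/SVZ, and the last of these was in the V/SVZ over CP list. Htr2b, a Gq-coupled serotonin receptor, had 8 V/SVZ tags in a peak also inside Psmd1, and Adra2c, a Gi-coupled adrenergic receptor, had 7 V/SVZ tags 5192 bp upstream. Neither had a listed CP peak. Drd2, the Gi-coupled dopamine receptor that antipsychotic drugs block, had 25 CP tags 9075 bp downstream and 6 V/SVZ tags 1038 bp upstream, with no listed peak of the other tissue at either place.

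Other genes of these pathways were counted in the same way. Of 20 genes for synthesis, transport and breakdown of the transmitters, 12 had a control peak, 6 a CP over V/SVZ peak (50%) and 7 a V/SVZ over CP peak (58.3%). Tph1, a rate-limiting enzyme of serotonin synthesis, had 18 CP tags in its CP over V/SVZ peak, and Th, that of dopamine synthesis, had 2 such peaks of 65 tags in all. Of 33 genes for G proteins, their effectors and regulators, 28 had a control peak, 18 (64.3%) a CP over V/SVZ peak and 19 (67.9%) a V/SVZ over CP peak. Gnas, the Gs subunit, had the most tags in direct peaks, with 3 CP over V/SVZ peaks of 996 tags and 0 V/SVZ over CP peaks. Its listed control peaks held 98 tags in CP and 397 in V/SVZ. Gnai2, a Gi subunit, had 3 V/SVZ over CP peaks of 73 tags and no listed CP control peak. Gnaq, the Gq subunit, had 1 CP over V/SVZ peak of 88 tags and 4 V/SVZ over CP peaks of 45. Of 8 chaperones and modulators of nicotinic receptors, all had a control peak, 2 a CP over V/SVZ peak (25%) and 4 a V/SVZ over CP peak (50%). These percentages are of the genes with a control peak. Over all autosomal genes with a control peak the shares were 56.2% and 56.3%, as above.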

How the data were processed

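MBD-seq of 1 CP and 1 V/SVZ library was analysed from 4 deposited tables, grouped by the tissue labels. The submitters' processing notes list CASAVA 1.8, Bowtie and build mm9. Columns carry the names that MACS, a peak caller, writes, per the file headers. Caller settings are unstated in the sources used here. In the deposited tables the tags are a read count per peak, the significance is a score (10 times the negative log10 of p) and the fold is a ratio to local expectation, both made by the authors. The authors' false discovery rate is in percent. Each line pairs a peak with a RefSeq transcript at most 10 kb away and gives a distance in bp, per the file headers. Both control tables hold 65535 lines, while peak numbers reach 69397 in CP and 58582 in V/SVZ.

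Control peaks were paired between tissues by an overlap of at least 1 bp. Ratios are CP over V/SVZ tags, unscaled, with exact binomial 95% intervals, and shares carry Wilson 95% intervals. No p is given, since each tissue has 1 library, and a ratio 2-fold from the autosomal median was the threshold. Gene ends in mm9 were derived from the deposited distances with the strand from RefSeq, and 99.9% of 3166 transcripts with several upstream peaks gave the same 5' end within 1 bp. Python 3.11.15, pandas 2.3.3 and SciPy 1.17.1 were used, and the pairing and ratios were tested on simulated data.

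The members and lists were chosen with earlier results of these data known. Named by rule were genes with a promoter peak, the 6 most significant peaks of each direct list, the 5 genes with most control peaks per tissue (ties at 3 peaks excepted), the 5 highest and 5 lowest ratios among pairs of at least 30 tags, and the peak of each family with most tags. 1 receptor gene is counted but not reported by name here, nor shown in the figures. Other genes were named, and genes grouped by G protein, after their values were seen. Alternatives changed the overlap, tag minimum, score, fold, window, promoter distance and scaling by peak length.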

Additional observations from a re-analysis of the deposited data

Results flagged for a closer look

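Htr2c, the serotonin receptor gene on the X chromosome, lies outside the autosomal rule used above. Its values are given because both of its direct peaks were CP over V/SVZ. Most direct peaks outside chromosomes 1 to 19 were of this kind, so that it is not particular to Htr2c. Chromosomes 1 to 19 held 18249 of 19696 CP over V/SVZ peaks and 21643 of 21914 V/SVZ over CP peaks. A peak inside the gene had 33 tags in CP (chrX:143397349-143397944, mm9) and no listed V/SVZ peak. A peak 9087 bp downstream had 55 tags in CP, beside 12 in the overlapping V/SVZ control peak. These peaks are a signal in rows that the comparisons above do not use. A difference between the tissues was not tested, as there was 1 library each.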

How the results depend on the processing

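No paired analysis was possible because there was 1 library per tissue. The counts of receptor peaks over control, the shares in common regions and the number of genes with a V/SVZ over CP peak stayed within 1.5 times or within their interval under every alternative run for them. With a score of at least 100 the number of genes with a CP over V/SVZ peak was 8, in place of 18. The share at that score was 27.4% of all autosomal genes with a control peak. The median ratio was 1.54 per bp of peak (1.64 over all autosomal pairs). The number of pairs at least 2-fold above the median was 1 per bp and 0 with at least 30 tags (8.64% of all autosomal pairs). The number at least 2-fold below was 1 per bp and 1 with an overlap of 50% of both peaks. Promoter peaks within 2 kb upstream numbered 5 in CP, 5 in V/SVZ, 2 in CP over V/SVZ (4.61% of all) and 1 in V/SVZ over CP (2.41%). Peaks over the 5' end or whole transcript numbered 0 in CP (1.46% of all), 1 in V/SVZ (1.23%) and 0 in CP over V/SVZ (1.69%). Depth limits the weaker regions: at the median receptor peak of 27 tags in CP and 16.5 in V/SVZ, exact intervals of a ratio span more than 2-fold.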

Other observations

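The direct lists and the tag ratios did not order all receptor regions alike. The shared region downstream of Chrnb1 had 140 tags in CP over 1253 bp and 73 in V/SVZ over 517 bp, a ratio of 1.92 (1.44 to 2.58). A V/SVZ over CP peak of 27 tags lay inside the CP peak and did not overlap the V/SVZ control peak. Per bp its ratio was 0.791, the lowest of the 48 receptor pairs. The Drd5 region inside the gene had a ratio of 3.03 and was in neither direct list.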
